A study of Mus musculus with 4 samples.

Results

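The genes described here encode the subunits of Mediator, the TBP-associated factors (TAFs) and the general transcription factors whose symbols begin with Gtf2 or Gtf3. They were chosen by name: every probe set whose only gene symbol in the platform annotation starts with Gtf2 or Gtf3, or with Med or Taf and a digit. The rule found 94 probe sets of 60 genes, among the 12393 genes of the array. Of these, 27 were Mediator genes, 15 were TAF genes, 12 were Gtf2 genes and 6 were Gtf3 genes. The rule is wider than the general factors of RNA polymerase II, since it also takes in TAFs of RNA polymerase I and of the coactivator SAGA, the TFII-I family, and the TFIIIA and TFIIIC factors of RNA polymerase III. A further 3 probe sets shared between Taf9 and another gene were not analysed here.

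RNA was measured in R1 mouse embryonic stem (ES) cells, an established line, on 4 Affymetrix arrays. In one group, 2 duplicate infections carried a lentiviral short hairpin RNA (shRNA) that targets Brg1. This protein, the product of Smarca4, is a catalytic ATPase of SWI/SNF, the complexes that remodel chromatin. In the control group, 2 infections carried an shRNA against the glucose transporter GLUT4. All cells were harvested 67 h after infection, so both groups had been infected and both expressed an shRNA. The comparison asks which of these RNAs differ when Brg1 is depleted. Each group is a single shRNA in a single cell line. Nothing further says whether the duplicates came from separate cultures, so the p-values measure only the spread between these arrays.

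Transcription of a protein-coding gene starts when RNA polymerase II is placed at a promoter together with TFIIA, TFIIB, TFIID, TFIIE, TFIIF and TFIIH. TFIID, made of TBP and its TAFs, recognises the core promoter, and Mediator joins sequence-specific activators bound at enhancers to the polymerase. Mediator has a head and a middle module that contact the polymerase, a tail that contacts many activators, a scaffold subunit (Med14) and a separable kinase module. RNA polymerase I uses SL1, made of TBP and its own TAFs, and RNA polymerase III uses TFIIIA at 5S genes and TFIIIC at tRNA genes. In ES cells Mediator is known for its high occupancy at enhancers of pluripotency genes, where SWI/SNF is also bound.

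Of the 60 genes, 54 had a promoter in the RefSeq table of build GRCm38.p6. The promoters of the 3 genes called changed below, Med6, Gtf3c1 and Taf1c, are shown with those of Gtf3c2 and Gtf3c5, the members of the same TFIIIC complex as Gtf3c1 with the largest differences among those not called. Each is the 250 bases before an annotated start, 5′ to 3′ on the gene's strand, which is minus for all 5 genes. Capitals mark every match, on either strand, to 6 motifs of core and proximal promoters: the TATA box (TATAAA), the CCAAT box (CCAAT), the GC box (GGGCGG), an ETS factor motif (CCGGAAG), and the cores of the NRF1 (GCGCATGC) and YY1 (AAGATGGC) motifs.
Med6, chr12:81595009-81595258: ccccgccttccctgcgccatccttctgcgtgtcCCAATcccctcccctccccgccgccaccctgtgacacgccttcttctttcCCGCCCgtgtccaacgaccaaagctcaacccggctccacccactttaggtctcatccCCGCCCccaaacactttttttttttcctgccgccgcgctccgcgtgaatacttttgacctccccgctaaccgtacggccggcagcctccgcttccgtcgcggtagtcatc
Gtf3c1, chr7:125707689-125707938: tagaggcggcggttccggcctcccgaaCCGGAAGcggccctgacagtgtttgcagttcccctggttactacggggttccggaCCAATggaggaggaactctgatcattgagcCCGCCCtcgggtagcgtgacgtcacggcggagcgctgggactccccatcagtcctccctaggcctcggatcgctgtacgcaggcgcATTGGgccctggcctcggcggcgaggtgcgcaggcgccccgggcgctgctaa
Gtf3c2, chr5:31180145-31180394: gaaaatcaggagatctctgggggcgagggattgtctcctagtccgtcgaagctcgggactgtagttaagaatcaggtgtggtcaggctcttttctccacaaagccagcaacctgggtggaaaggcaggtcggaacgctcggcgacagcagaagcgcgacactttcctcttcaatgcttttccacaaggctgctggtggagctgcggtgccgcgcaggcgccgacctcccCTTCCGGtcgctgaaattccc
Gtf3c5, chr2:28583280-28583529: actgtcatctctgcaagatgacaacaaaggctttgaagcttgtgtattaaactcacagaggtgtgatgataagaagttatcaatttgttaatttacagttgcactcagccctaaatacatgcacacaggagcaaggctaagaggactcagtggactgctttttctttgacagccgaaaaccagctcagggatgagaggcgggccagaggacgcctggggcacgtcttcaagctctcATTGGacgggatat
Taf1c, chr8:119605207-119605456: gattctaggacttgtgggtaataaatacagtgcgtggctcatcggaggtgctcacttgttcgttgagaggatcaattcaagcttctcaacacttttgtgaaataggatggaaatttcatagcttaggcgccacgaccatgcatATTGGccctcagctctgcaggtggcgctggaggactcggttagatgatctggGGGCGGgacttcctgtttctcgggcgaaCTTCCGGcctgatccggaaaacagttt

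None of these 5 windows held the TATA box letters. Med6 had CCAAT and GC boxes, Gtf3c1 and the Taf1c window had these and an ETS match, Gtf3c2 an ETS match alone and Gtf3c5 a CCAAT box alone. Taf1c has another annotated start with a window that is not shown. Over the 54 members, 18 (33.3%) had an ETS match in at least 1 window, against 17.7% of the 6385 tested genes with a promoter and 7.83% of all 27025 genes in the table. TATA box letters stood in 9 members (16.7%, against 7.09% of tested genes and 14.3% of all genes), and GC boxes in 30 (55.6%, against 67.9% and 35.4%). The NRF1 core stood in 7 members (13%, against 5.86% of tested genes and 2.56% of all), CCAAT boxes in 21 (38.9%, against 41.1% and 37.5%) and the YY1 core in 2 (3.7%, against 2.74% and 1.83%). These are matches of letters and not measured sites, and genes with more than 1 annotated start had more than 1 window searched.

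Smarca4 fell in part. In array intensity units, the knockdown arrays read 652.1 and 621.5 and the controls 1186.6 and 1213.6. The log2 difference was -0.89 ± 0.08 (SE; adjusted p = 0.000232 with limma). Slc2a4, the gene of GLUT4, lay at 20.9 and 23.9 in the knockdown and 11.7 and 19.2 in the control and was not tested. All 10 ES cell markers on a fixed list lay above the filter on low signals, and 3 of them were higher in the knockdown (Nanog, Esrrb and Fgf4). The rest of the list did not pass, with differences on both sides of 0, from -0.22 (Sox2) to 0.25 (Zfp42). The arrays of Sox2 did not overlap between the groups, at 1515.8 and 1272.4 in the knockdown and 1643.8 and 1608.2 in the control. Those of Zfp42 and Tcl1 did not overlap either, and both genes were higher in the knockdown. Of 10 fibroblast markers, which feeder cells would express, 2 passed the filter (Acta2 and Thy1). Neither of these passed the test. The summed signal of all 10, of which 8 lay below the filter, was 219.6 to 253.4 in the knockdown and 207.8 to 210.1 in the control, and its part in the results was not tested. In such bulk samples fewer cells expressing a gene and less RNA per cell cannot be told apart.

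Most of these genes differed little. Of the 60, 57 passed the filter at 23.92 signal units and were tested, and 3 of these passed the threshold of limma's test (adjusted p below 0.05): in the knockdown 2 rose and 1 fell. That is 5.26% of the members, where 14.4% of all 7815 tested genes were called, 9.33% higher and 5.09% lower. The split by direction depended on the scale. Over all genes it was 729 higher and 398 lower, but 622 and 598 with median centring and 1413 and 30 with spike-in scaling, and for the members it was 2 and 2, and 9 and 0, on those scales. The 3 are Med6, a head subunit of Mediator, which fell, and Taf1c, a subunit of SL1, and Gtf3c1, the largest subunit of TFIIIC, which rose. No member differed by as much as 2-fold on the scale used, log2 of the signal plus 20.01, which understates the change of dim genes. The differences ran from -0.46 to 0.62 on the log2 scale, with SEs from 0.07 to 0.17.

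As far as the spread between these arrays goes, the intervals bound what could have been missed on the deposited scale. In 49 of the 57 tested members (86%) the 95% interval of the difference lay wholly within 1.5-fold either way (0.585 on the log2 scale), against 70.5% of all tested genes. The 8 others were Med6, Med23, Taf7, Taf1a, Taf1c, Gtf2ird2, Gtf3c1 and Gtf3c5. The bound does not carry over to other scales. With spike-in scaling the differences of Med1, Med15, Taf5l and Gtf3c2, which are among the 49, were 0.599 to 0.627. The replicates of the members also lay closer together than those of tested genes at large: within the knockdown pair their log2 differences had an SD of 0.144, and within the control pair one of 0.183, where all tested genes had 0.215 and 0.201. Between arrays of different groups it was 0.193 to 0.259 for the members and 0.321 to 0.375 for all tested genes. The members were also brighter, with array medians of 8.17 to 8.25 on the log2 scale against 7.71 to 7.82 for all tested genes. The part of brightness in the narrower intervals and closer replicates was not tested.

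The members leaned upward. Of the 57, 42 (73.7%) had a difference above 0 and the median was 0.11, beside 55.4% and a median of 0.04 over all tested genes. In 33 members (57.9%) the knockdown arrays did not overlap the control arrays, 27 higher and 6 lower, where 60.2% of all tested genes did not overlap, 34.3% higher and 25.9% lower. The lean depended in size on the probe set rule and on the scale. With the mean of all probe sets the share above 0 was 68.4% for members and 53.6% for all genes. With every probe set by itself it was 64.7% of member probe sets and 51.8% of all probe sets tested. With each array centred on its median the share above 0 was 64.9% for members and 47.5% for all genes, and with arrays scaled to their hybridisation spike-ins it was 96.5% and 89.3%. The median difference of all tested genes was -0.01 and 0.33 on those scales, so every direction here is relative to the deposited scale. The spike-ins averaged 9.44 and 9.14 on the log2 scale on the knockdown arrays against 9.67 and 9.57 on the control arrays, and their part in the result was not tested.

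**Figure D1:**
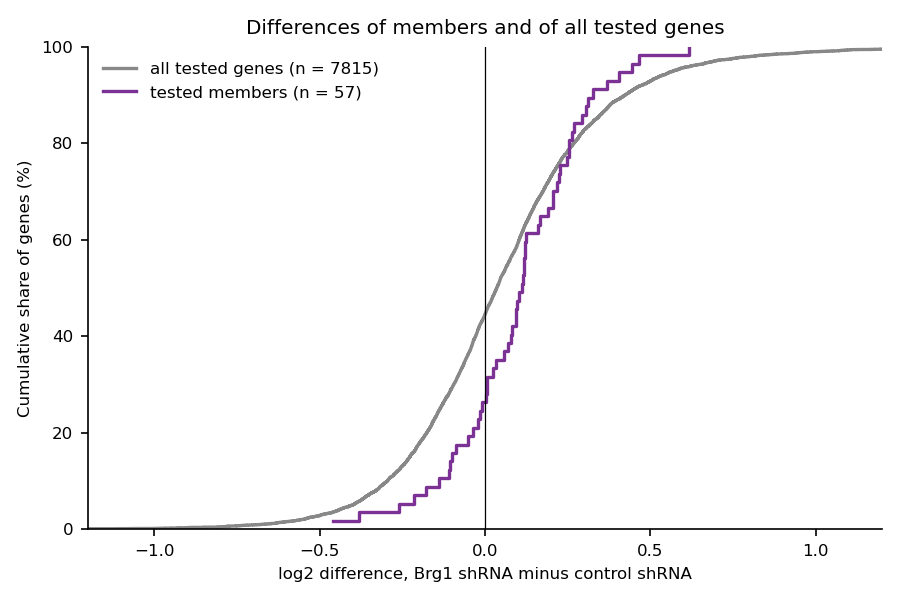
Cumulative share of genes (%) against the log2 difference between Brg1 shRNA and control shRNA, for the 57 tested members (purple) and all 7815 tested genes (grey). The purple curve is the steeper of the pair, from -0.46 to 0.62, and crosses 0 at 26.3% where the grey curve crosses it at 44.6%.

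Among the Mediator genes, 26 of 27 were tested, 0 rose, 1 fell and 25 did not pass, with a median of 0.12. By the count at an unadjusted p under 0.05, limma gave 4 higher and 1 lower. Over all members that count was 15 of 57 (26.3%), where it was 31.3% of all tested genes. The exception past the adjusted threshold was Med6, a head subunit conserved from yeast. It read 223.1 and 205.1 in the knockdown, and 296.3 and 306.9 in the control. Both knockdown arrays lay well below both controls. The log2 difference was -0.46 ± 0.10 (SE), a 1.38-fold fall (limma, adjusted p = 0.0185). With knockdown replicate 2 left out the adjusted p was 0.0749, and with control replicate 2 left out 0.0576. The call was also lost with no filter on low signals (0.052) and with the spike-in scaling, where the difference was -0.15 (0.618).

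The other 5 head subunits measured did not follow Med6. Their differences ran from -0.02 for Med22 to 0.26 for Med17, the scaffold of the head, and Med8, Med11 and Med20 lay between. Med17 was 469.2 and 555.2 in the knockdown and 409.3 and 440.0 in the control, with no overlap and an adjusted p of 0.129.

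In the middle module 0 of 9 passed the test (1 had an unadjusted p under 0.05), with a median of 0.12 and a range from -0.10 (Med31) to 0.29 (Med1). Med1 is the subunit bound by nuclear receptors. Its brightest probe set read 273.4 and 309.0 in the knockdown and 245.5 and 222.6 in the control, a difference of 0.29 ± 0.11 (limma, adjusted p = 0.104). A second bright probe set of Med1 read 221.3 and 230.0 against 128.2 and 168.2. That one passed when every probe set was tested by itself (log2 difference 0.56, adjusted p = 0.0415), while a dim probe set of Med1 differed in sign, at -0.33 (adjusted p = 0.233). The call of Med1 therefore depends on the probe set. Med26, which takes part in recruiting elongation factors, was 182.0 and 203.0 against 146.5 and 168.1, a difference of 0.26 ± 0.12 (adjusted p = 0.169). Med4, Med7, Med9, Med10, Med19 and Med21 had differences from -0.09 to 0.19.

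All 5 tail subunits had differences above 0, on the deposited scale and also with median centring, quantile normalization and spike-in scaling, but 0 of 5 passed the test on the deposited scale (2 had an unadjusted p under 0.05). The median was 0.25. Med23, a tail subunit that receives signals from the MAP kinase pathway, was 310.4 and 301.0 in the knockdown and 209.3 and 257.1 in the control. The groups did not overlap, and the difference was 0.37 ± 0.12 (SE; limma, adjusted p = 0.0618). It passed without control replicate 2 (adjusted p = 0.0218) and with the spike-in scaling (0.0224). Med15, a tail subunit that binds SMAD and SREBP factors, was 231.5 and 225.0 against 167.5 and 188.7. Its difference was 0.33 ± 0.11 (adjusted p = 0.0774), and it passed with the spike-in scaling alone (0.0333). Med16 (0.25), Med24 (0.21) and Med25 (0.09) had smaller differences, and only the arrays of Med25 overlapped between the groups. In 1 of the 16 alternative settings described below, the difference of Med25 was below 0 (-0.07).

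The subunits between head and tail, Med27, Med28, Med29 and Med30, had differences from -0.02 to 0.17, and none of the 4 passed, also at an unadjusted p under 0.05. Med14, the scaffold of the complex, was dim and had a difference of -0.11 ± 0.16 (adjusted p = 0.681). Med12 of the kinase module was 228.3 and 270.7 in the knockdown and 194.9 and 216.0 in the control, a difference of 0.25 ± 0.12 (adjusted p = 0.175). Its paralog Med12l lay below the filter, at 27.1 or less on every array, and was not tested. The kinase Cdk8 and its cyclin gene Ccnc, which complete that module and are not members by name, had differences of -0.05 and -0.13 (adjusted p = 0.706 and 0.648).

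**Figure D2:**
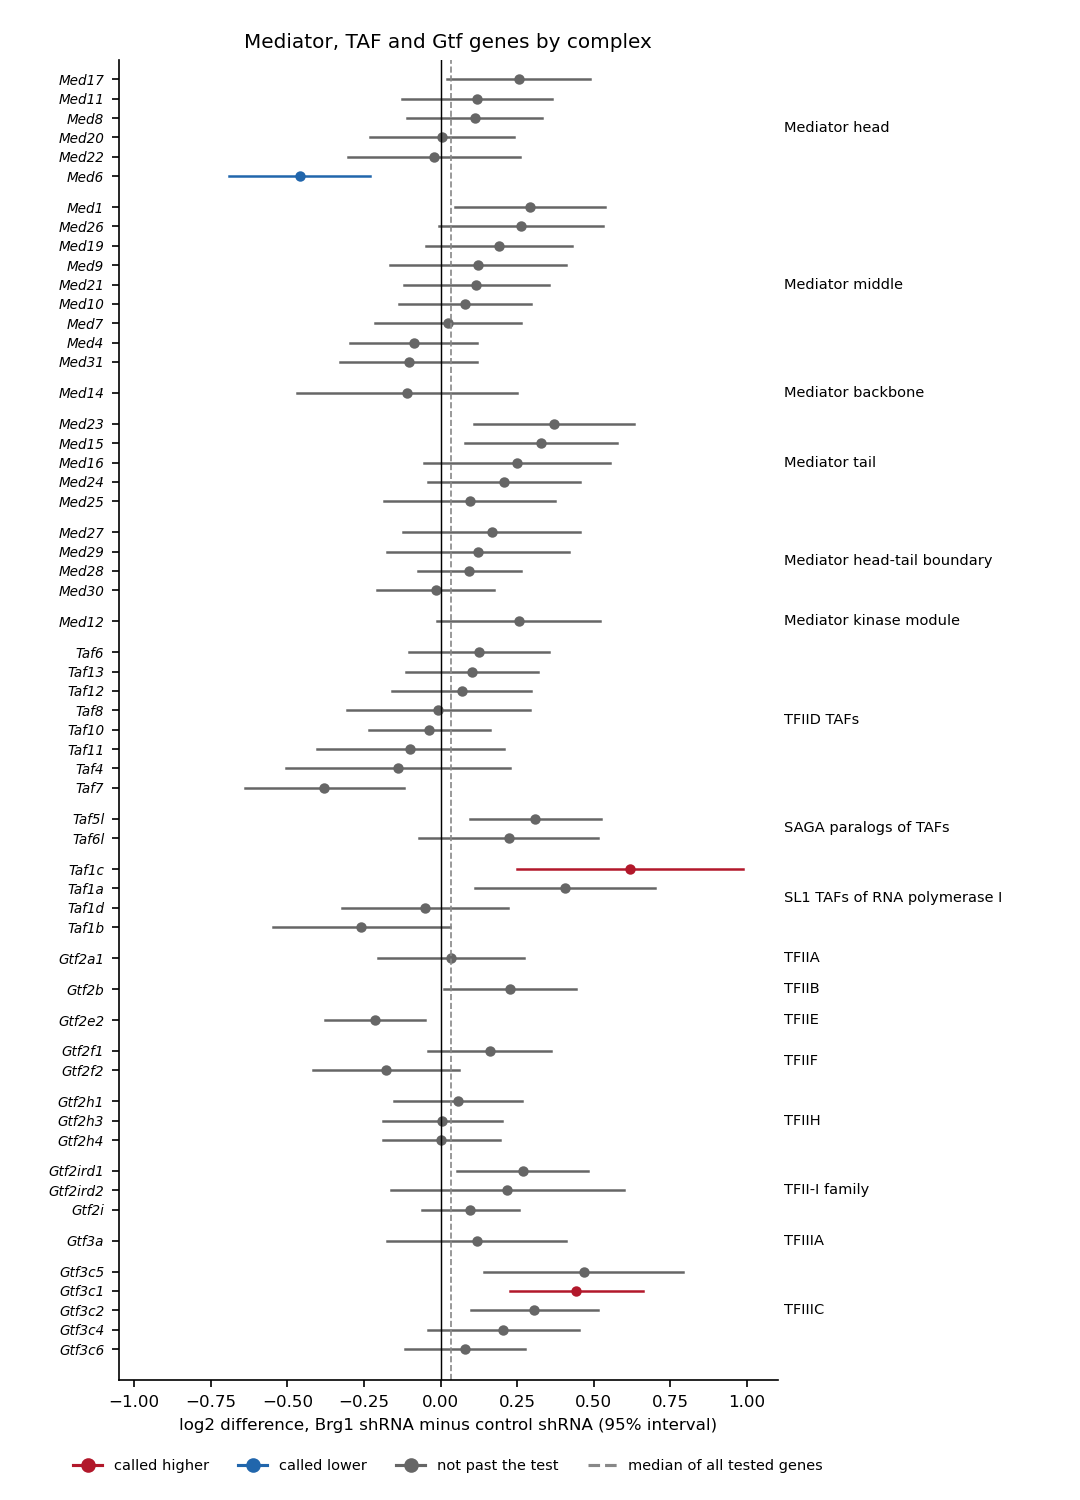
log2 differences between Brg1 shRNA and control shRNA (points) with 95% intervals (lines) for the 57 tested members, grouped by complex and sorted within each; the dashed line is the median of all tested genes, 0.04. Med6 (blue) is the 1 called fall, Taf1c and Gtf3c1 (red) are the 2 called rises, and the intervals of the grey genes mostly reach or cross 0.

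Of the 9 TFIID subunits, 8 were tested and 0 passed (1 had an unadjusted p under 0.05), with a median of -0.02 and 3 of 8 above 0 (0.29 and 7 of 8 with the spike-in scaling). Taf7, a subunit that binds and restrains the acetyltransferase Taf1, had the lowest value. It was 362.1 and 461.8 in the knockdown and 543.1 and 533.3 in the control, so all knockdown values lay below the controls but also far from each other. The difference was -0.38 ± 0.12 (SE; limma, adjusted p = 0.0555). A second probe set gave -0.30 (adjusted p = 0.0954 with every probe set by itself). Taf7 passed with median centring (adjusted p = 0.026), quantile normalization (0.0442), the mean of its probe sets (0.0497) and without knockdown replicate 2 (0.0102), and with the spike-in scaling its difference shrank to -0.06. The other TAFs tested, the histone-fold proteins Taf4, Taf6, Taf8, Taf10, Taf11, Taf12 and Taf13, had differences from -0.14 to 0.13. The germ cell paralog Taf7l lay below the filter, at 43.2 on one knockdown array and 13.6 to 15.1 on the other 3 arrays.

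Taf5l and Taf6l take the places of Taf5 and Taf6 in SAGA, a histone acetyltransferase coactivator. Both had differences above 0 on each scaling tried and neither overlapped between the groups. Taf5l was 482.0 and 545.0 against 413.4 and 405.9, a difference of 0.31 ± 0.10 (SE; limma, adjusted p = 0.0581). It passed without knockdown replicate 1 (adjusted p = 0.0365) and with the spike-in scaling (0.0355). Taf6l had a difference of 0.22 ± 0.13 (adjusted p = 0.279).

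The 4 SL1 subunits, which place RNA polymerase I on ribosomal RNA genes, had 2 differences above 0 and 2 below on the deposited scale, and 4 above with the spike-in scaling. Taf1c rose. Its signal was 258.7 and 301.2 in the knockdown and 142.2 and 214.3 in the control, so the control arrays differed from each other by more than the knockdown arrays did. The log2 difference was 0.62 ± 0.16 (SE), a 1.54-fold rise and the largest among the tested members (limma, adjusted p = 0.0363). The call was lost without control replicate 1, where the difference was 0.35 (adjusted p = 0.133), and without knockdown replicate 2 (0.0947). It was also lost with no filter (0.124), with no intensity trend in the variance (0.0863) and when probe sets were tested singly (0.0593). The suffix of its only probe set (_s_at) marks a design shared by several transcripts.

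Taf1a, another SL1 subunit, was 125.1 and 125.6 in the knockdown and 98.0 and 82.0 in the control, a difference of 0.41 ± 0.13 (limma, adjusted p = 0.0671) with no overlap. Taf1b, at 126.1 and 146.8 against 180.9 and 153.6, had a difference of -0.26 ± 0.13 (adjusted p = 0.205), also with no overlap, and of 0.03 with the spike-in scaling. Taf1d was measured by 5 probe sets, all with differences below 0. The brightest gave -0.05 (adjusted p = 0.807), and 1 of the others, at 107.2 and 93.8 against 147.5 and 155.7, passed when tested by itself (-0.51, adjusted p = 0.0414). That one is an _x_at probe set, a type that represents a gene here only where there was no other.

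Of 11 tested Gtf2 genes, 3 of them of the TFII-I family, 0 passed the test. At an unadjusted p under 0.05 there were 3: Gtf2b and the TFII-I gene Gtf2ird1 above 0 and Gtf2e2 below. The median was 0.06 with 9 of 11 above 0, and with the spike-in scaling it was 0.37 with 11 of 11 above 0. The TFIIH core subunits Gtf2h1, Gtf2h3 and Gtf2h4, of the factor that opens promoter DNA, had differences of 0.06, 0.01 and 0.00, with SEs of 0.08 to 0.09. Among the subunits of TFIIA to TFIIH the lowest p was that of Gtf2e2, the small subunit of TFIIE. It was 1198.4 and 1218.1 in the knockdown and 1434.9 and 1374.5 in the control, with a wide gap between the groups beside the gap within them. Its difference was -0.21 ± 0.07 (adjusted p = 0.0812), and its interval, -0.38 to -0.05, excluded a fall of 1.5-fold. With the spike-in scaling the difference was 0.11.

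Gtf2b, which joins the polymerase to TBP, had a difference of 0.23 ± 0.10 (adjusted p = 0.14). The TFIIF pair differed in sign, with Gtf2f1 at 0.16 and Gtf2f2 at -0.18 (0.13 with the spike-in scaling), and neither passed (adjusted p = 0.254 and 0.287). Gtf2a1, the large subunit of TFIIA, had a difference of 0.03 on its brightest probe set and of -0.32 and -0.60 on dim ones, none past the test. Its germ cell paralog Gtf2a1l was at 2.9 and 8.7 against 7.9 and 2.3, below the filter.

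The TFII-I genes encode signal-responsive transcription factors that bind their own DNA sites. Gtf2ird1 was 403.8 and 424.8 in the knockdown and 328.2 and 353.2 in the control, with no overlap and a difference of 0.27 ± 0.10 (limma, adjusted p = 0.0894). A dimmer probe set gave 0.24. Gtf2i had a difference of 0.10 and Gtf2ird2, near the filter, of 0.22, and neither passed.

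The factors of RNA polymerase III had the highest median of the 4 name classes, 0.26, and all 6 tested genes had differences above 0 on each scaling tried. In 1 of the 16 alternative settings described below, the difference of Gtf3a was below 0 (-0.09). Gtf3c1, which binds the internal promoter of tRNA genes, rose from 283.7 and 307.1 in the control to 401.1 and 416.2 in the knockdown. The groups stood far apart compared with the gap within each. The log2 difference was 0.44 ± 0.10 (SE), a 1.36-fold rise (limma, adjusted p = 0.0162). Leaving out knockdown replicate 2 ended the call (0.42, adjusted p = 0.0599), as did leaving out control replicate 1 (0.39, adjusted p = 0.0584). It was the 1 member call that also held with no filter on low signals.

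The other 4 TFIIIC genes did not pass. Gtf3c5 was 162.5 and 217.0 in the knockdown and 139.0 and 122.4 in the control, a difference of 0.47 ± 0.14 (adjusted p = 0.0591). It passed without knockdown replicate 1 (0.00787) and with the spike-in scaling (0.00777). Gtf3c2 was 503.1 and 462.0 against 387.5 and 384.5, a difference of 0.31 ± 0.09 (adjusted p = 0.0535).

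Neither gene's arrays overlapped between the groups. The 4 probe sets of Gtf3c2 gave differences from 0.04 to 0.31. Gtf3c4, with no overlap, had a difference of 0.20 and Gtf3c6 one of 0.08, and Gtf3a, the TFIIIA gene, one of 0.12 ± 0.13 (adjusted p = 0.575).

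**Figure D3:**
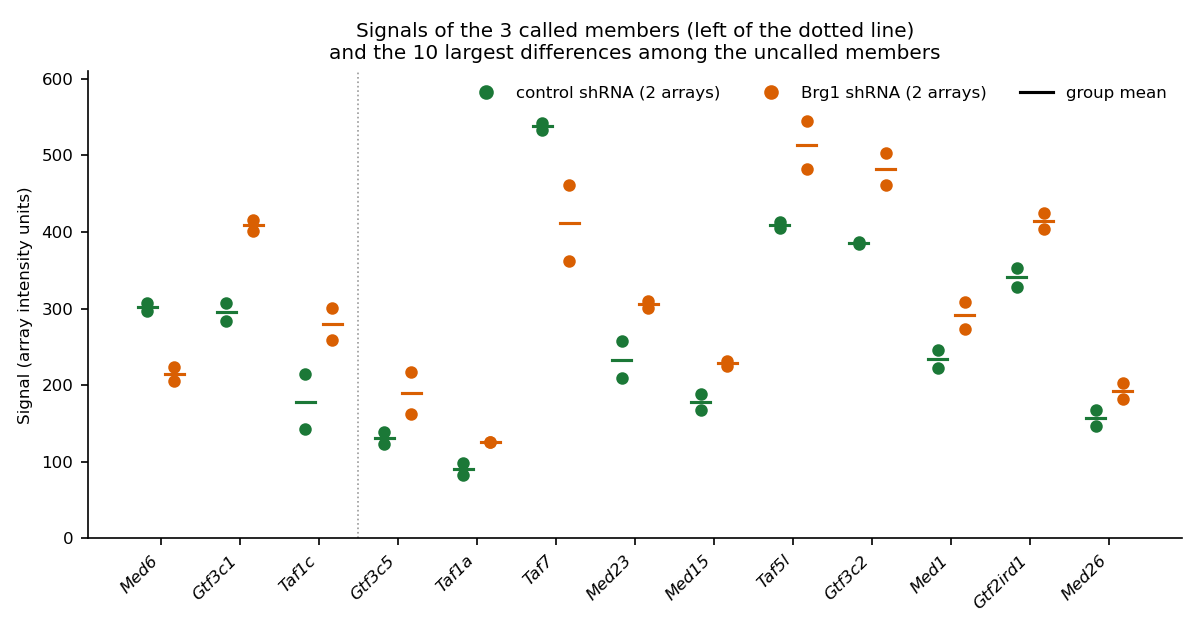
Signals (array intensity units, linear axis from 0) of the 3 called members, left of the dotted line, and the 10 largest differences among the members not called; points are single arrays, 2 per group, and bars are group means. In all 13 genes the knockdown arrays (orange) lie on one side of the control arrays (green), below for Med6 and Taf7 and above for the rest. The genes were picked by their differences on these same arrays, and 60.2% of all tested genes do not overlap.

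Several members were read by more than 1 probe set. In 16 members at least 2 probe sets passed the filter; in 8 of these all differences had the same sign, and in the other 8 they did not. Probe sets of both signs were found for Gtf2a1, Gtf2h4, Gtf2i, Gtf3c6, Med1, Med9, Med20 and Taf4. Tested by themselves, 4 of 85 member probe sets passed (4.71%, against 9.13% of all 13576 probe sets tested), 2 higher and 2 lower. They were those of Med6 and Gtf3c1, the second of Med1 and 1 of Taf1d, an _x_at probe set. With the mean of all probe sets of each gene, 7 members passed, the same 3 and Gtf3c5, Taf1a, Taf5l and Taf7, where 14.3% of all genes then passed. Of those gained, only Taf7 has more than 1 probe set. The differences of Gtf3c5, Taf1a and Taf5l were not changed by the averaging. Their adjusted p moved because the fit and the adjustment run over all genes.

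The rest of the transcription apparatus gave larger single changes. Of 62 tested genes on 8 lists of related factors, 6 rose, 1 fell and 55 did not pass (11.3% called, against 14.4% of all tested genes), and the median was 0.02. Polr2a, the largest subunit of RNA polymerase II, rose from 629.7 and 757.5 to 1206.9 and 1260.6, a gain of 0.82 ± 0.10 on the log2 scale (SE; adjusted p = 0.000885 with limma). Polr2h, a small subunit shared by the 3 RNA polymerases, fell from 1012.2 and 1006.7 to 671.4 and 765.1, by 0.48 ± 0.09 on the log2 scale (adjusted p = 0.0075), a call lost with the spike-in scaling (-0.16, adjusted p = 0.585). The other 9 tested subunits of the polymerase did not pass, with differences from -0.15 to 0.22.

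Among 19 tested elongation factors 3 rose and 16 did not pass (15.8% called, against 14.4% of all tested genes). Hexim1, the inhibitor of the elongation kinase P-TEFb, rose by 0.88 ± 0.12, and Nelfa, a subunit of the pausing factor NELF, by 0.59 ± 0.08 (limma, adjusted p = 0.00171 and 0.00219). Supt5, a subunit of the pausing and elongation factor DSIF, rose by 0.34 ± 0.08 (adjusted p = 0.0241), a call lost without knockdown replicate 2 (0.138) or control replicate 1 (0.0573), with no filter (0.0664) and with no intensity trend (0.0863).

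Of 12 tested SAGA genes 2 rose and 10 did not pass (16.7% called, against 14.4% of all tested genes). Kat2a, the acetyltransferase of SAGA, rose by 0.55 ± 0.10 and Trrap, its activator-binding scaffold, by 0.42 ± 0.09 (limma, adjusted p = 0.0074 and 0.0195). The call of Trrap was lost without knockdown replicate 2 (0.059) or control replicate 2 (0.0744), with no filter (0.0521) and with no intensity trend (0.0529). Taf5l and Taf6l, described above, belong to the same complex.

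Tbp and its paralog gene Tbpl1 had differences of -0.32 and -0.27 (adjusted p = 0.119 and 0.0896), and 0 of 4 tested TBP family genes passed with limma, these 2 being the ones with an unadjusted p under 0.05. None passed among 5 further TFIIH genes, 2 TFIIIB and SNAPc genes and 7 cohesin genes, of which 2 cohesin genes had an unadjusted p under 0.05.

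**Figure D4:**
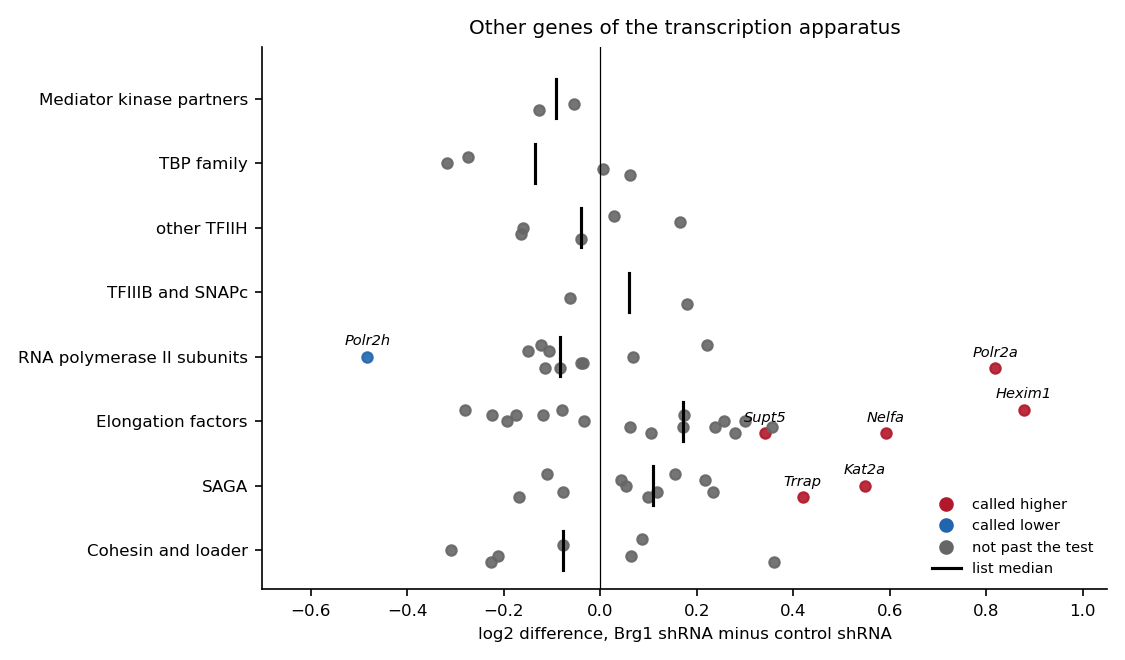
log2 differences between Brg1 shRNA and control shRNA of the 62 tested genes on 8 lists of related factors, 1 point per gene (vertical scatter within a list has no meaning), with black bars at the list medians. Polr2a and Hexim1 lie farthest to the right, at 0.82 and 0.88, and Polr2h farthest to the left, at -0.48.

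The member calls varied when single arrays were left out, and so did the calls over all tested genes. In each of these fits the share of members called was below the share of all tested genes called. All 3 calls were kept without knockdown replicate 1, 2 without control replicate 2 (Gtf3c1 and Taf1c) and 1 without control replicate 1 (Med6). None was kept without knockdown replicate 2, where Taf7 alone passed. The signs of Med6, Gtf3c1 and Taf1c were the same in all 16 alternative settings, but most of these could not reverse them. Filters, blocks and the variance trend leave a difference as it is, and each of these genes has a single probe set. Their arrays do not overlap between the groups, so another pseudocount or 1 array left out cannot change the sign. Only the changes of scaling could have done so. Of the 57 tested members, 33 kept their sign in all 16 settings, and 38 in all but the spike-in scaling.

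**Figure D5:**
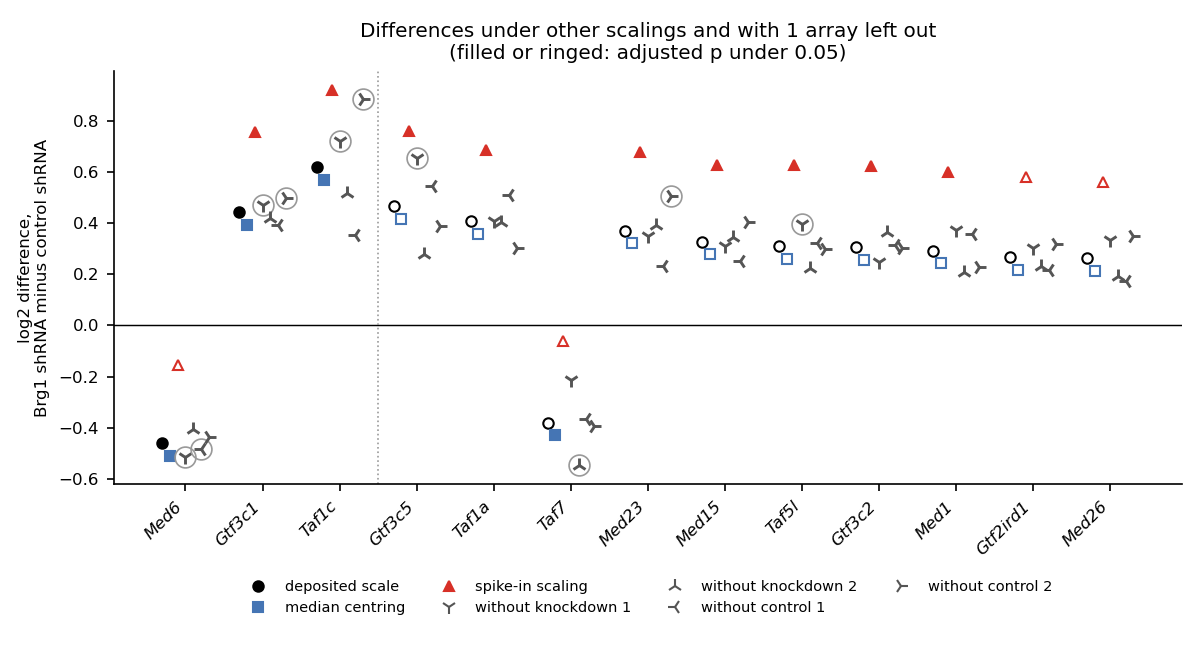
log2 differences of the 3 called members (left of the dotted line) and the 10 largest among the members not called, on the deposited scale, with median centring, with spike-in scaling and without each array in turn; filled or ringed symbols have an adjusted p under 0.05. No gene changes sign. The arrays of these genes do not overlap between the groups, so leaving an array out could not have changed a sign. Of the settings shown, only the changes of scaling could have done so. Spike-in scaling moves all of the genes upward, and with it the difference of Taf7 is -0.06.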

How the data were processed

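RNA of 4 samples was hybridised to Affymetrix mouse arrays. The deposited values are linear signal intensities, made by the authors with GCOS (version and settings not given in the sources used here), per the submitters' processing notes. Each array has a 2% trimmed mean of 200.1, so total differences in RNA between groups are scaled away.

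From these, log2(signal + 20.01) was taken, each gene was represented by its brightest probe set (an _x_at probe set only where there was no other), and genes whose mean lay under the 40th percentile of signal (23.92) were left out. The groups were compared with limma 3.58.1 in R 4.3.3 (lmFit, and eBayes with an intensity trend), two-sided, with Benjamini-Hochberg adjustment over all 7815 tested genes and a threshold of 0.05. The fit was tested on simulated data with independent normal noise. There it recovered 26.8% of genes changed 1.25-fold and 84.4% of those changed 1.5-fold, so many small differences would not pass. The precision is limited by the number of arrays. No detection calls were used. Genes were named from the platform annotation, and promoters were taken from RefSeq, GRCm38.p6.

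Any member could be named; signals on every array were given at least for members past the test and the 10 largest differences among the rest, and related genes were named where past the test or among the 4 lowest p-values of their list. The alternatives were pseudocounts of 5 and 50, filters, scalings, probe set rules, a replicate block and each array left out. The members and the lists of related genes and markers were chosen with earlier results of these data known.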

Additional observations from a re-analysis of the deposited data

How the results depend on the processing

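The member count of 3 became 1 with no filter on low signals, 9 with spike-in scaling, 7 with the mean of all probe sets and 0 at an adjusted p under 0.01 (15 at an unadjusted p under 0.05, which is 26.3% against 31.3% of all tested genes). Leaving out single arrays gave 1 to 6 members, 649 to 1265 of all genes (1127 with every array) and 5 to 11 of the related genes (7 with every array). The count over all genes was 433 with no filter and 393 at an adjusted p under 0.01. The member median of 0.11 became 0.0613 with median centring, 0.0794 with quantile normalization and 0.42 with spike-in scaling, and the median of all genes, 0.04, became -0.0147 with median centring; the cause was not tested. Of 908 single member values under 16 settings, 872 kept their side of the threshold, 11 lost the call, 25 gained one and none of the called ones changed sign. Among these settings only a change of scaling could have reversed the sign of a called member. With an array left out, the lone array of its group is assumed to vary like the other group.

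With the replicate number as a block, 5 members passed (8.77%, against 15.2% of all tested genes), the 3 and Gtf3c5 and Taf7. Same-numbered arrays did not deviate together (correlation -0.136 over 7815 genes). With 2 arrays per group the deviations within a group mirror each other, so that correlation cannot settle whether the numbers pair the samples. The 3′ to 5′ ratio of the actin control probe sets was 1.36 on the arrays numbered 1 and 1.31 on those numbered 2. The Gapdh ratios (0.827 to 0.845) had no such match. A crossed pairing, chosen after seeing the data, gave 8 members and 1478 of all genes.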

Other observations

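Among the tested members with a promoter entry, the 18 with an ETS match had a median log2 difference of 0.18 (range -0.11 to 0.62, 2 called), and the 33 without one had a median of 0.10 (range -0.46 to 0.47, 1 called). The ranges overlap and the difference was not tested.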
